A study of Mus musculus with 30 samples.

Results

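The genes described here are 10 that are used as markers of blood vessel endothelium, the cell layer that lines vessels: Pecam1, Cdh5, Kdr, Tek, Tie1, Emcn, Eng, Esam, Vwf and Cldn5. They were found by name among the 45281 probes of a mouse bead array, and 14 probes matched, 1 of them (for Vwf) under an older symbol. Cdh5, Kdr, Pecam1 and Vwf had 2 probes each and the other members had 1. After probes with too little signal were removed, 13870 genes were tested in all, and 9 of the 10 members were among them. Kdr was not, because neither of its probes was detected on any of the 30 arrays.

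The arrays carried RNA of mouse embryonic fibroblasts (MEFs) at 3 stages: primary MEFs in culture, MEFs transformed by knocking down p53 and overexpressing the oncogene HRasV12 and collected 2 weeks later, and tumours that formed in nude mice given transformed MEFs. At each stage the cells were null for Smchd1, a chromatin protein of the silent X chromosome, through the MommeD1 point mutation carried on the FVB/N strain, or were wildtype FVB/N cells. Each of the 4 culture groups had 3 samples of 1 array each. Each tumour group had 3 recipient mice with 3 arrays per recipient, which were averaged, so that n = 3 in all 6 groups. Nude mice lack thymus-derived T cells but have vessels and other blood cells of their own, so a tumour sample held cells of the recipient beside the injected ones, and the labels give no Smchd1 genotype for the recipients. Whether the 3 culture samples of a group were separate embryos or cultures is not given either, so that the p-values there measure the spread between samples, which may be technical.

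Levels are log2 intensities, in which a difference of 1 is a doubling of the signal, and a level has a meaning only within its own probe. Probes detected nowhere gave the background: its upper edge, their 95th percentile, lay between 6.28 and 6.38 in the 18 samples. In transformed MEFs Trp53, the gene that encodes p53, was lower than in primary MEFs by −3.10 ± 0.10 in null cells and −3.38 ± 0.10 in wildtype cells (log2 difference ± SE). Smchd1 averaged 7.26 ± 0.09 in null and 9.58 ± 0.03 in wildtype primary MEFs (mean ± SD), and 7.29 ± 0.05 in null and 9.43 ± 0.15 in wildtype transformed MEFs. It averaged 8.13 ± 0.12 in null and 9.32 ± 0.15 in wildtype tumours. Hras, the other gene targeted by the transformation, had group means of 10.07 to 10.37 at all stages. Whether its probe reads the introduced HRasV12 was not tested, so these values do not check the overexpression. All primary MEFs were on 1 chip, all transformed MEFs on another and all tumours on 3 others, so stage and chip cannot be told apart.

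Endothelial cells hold together through cadherin, claudin and immunoglobulin-type adhesion proteins at their junctions, and they take their growth signals from receptors for VEGF and for angiopoietins. A growing tumour obtains its vessels largely from the animal around it, by sprouting of nearby vessels, and RNA of those vessels is then part of the RNA of the whole tumour. Fibroblast cultures made from embryos start as mixtures of cells and can include some endothelial cells and macrophages. In bulk RNA, as here, fewer cells of a type and less RNA per cell cannot be told apart.

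Cdh5, Pecam1, Esam, Cldn5, Emcn and Eng followed one course, with group means above background in primary MEFs, lowest in transformed MEFs and highest in tumours. Vwf was above background in tumours alone of the 3 stages, and Tek had its highest levels in primary MEFs. Tumours exceeded transformed MEFs in 7 of the 9 tested members in null samples and in 8 of 9 in wildtype samples (limma, Benjamini-Hochberg adjusted p under 0.05 over all genes tested). Vwf is in both counts and Tie1 in the wildtype count. Both likely passed the detection filter through the tumour arrays, where they are high, so they add no separate support. The median member difference was 2.23 in null and 2.26 in wildtype samples, against −0.01 and −0.02 over all genes. These medians include members at background in transformed MEFs, for which a fitted difference is no exact size. Of all genes tested, 22.3% were called higher and 22.5% lower in null tumours than in null transformed MEFs, and 19.2% were called higher and 19.6% lower in wildtype tumours than in wildtype transformed MEFs.

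**Figure D1:**
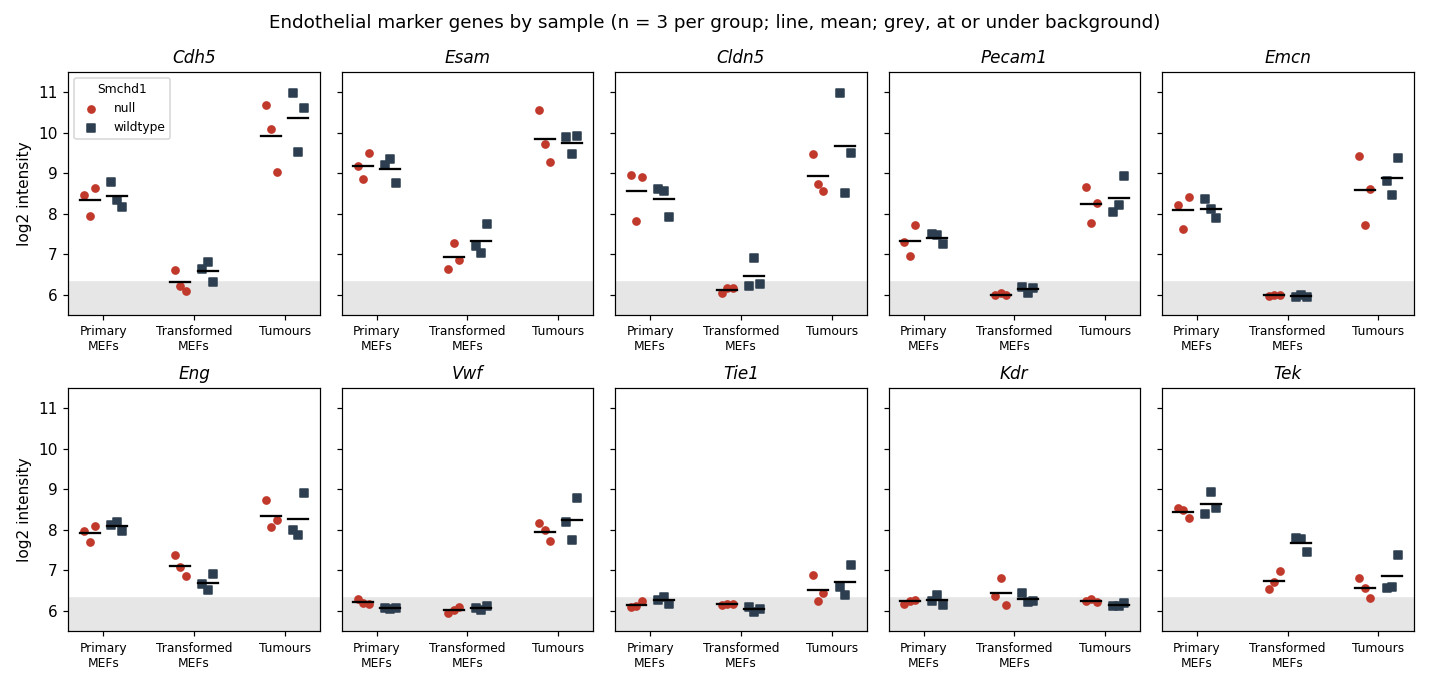
Log2 intensity (vertical axis) of each member in the 18 samples, by stage and genotype, with Kdr at its brighter probe and the background in grey. Each point is 1 sample, a tumour point being the mean of a recipient's 3 arrays, and the horizontal bars are group means of 3 samples. In 8 panels the tumour points lie above the transformed MEF points, as with Cdh5 at 9.03 to 10.98 against 6.09 to 6.81. Of all genes tested, 60.6% in null and 49.8% in wildtype samples had no overlap between these stages, in either direction. The Tek panel has its highest points in primary MEFs, at 8.30 to 8.94.

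Cdh5 encodes VE-cadherin, the cadherin of endothelial adherens junctions. Its level was 10.67, 10.08 and 9.03 in null tumours and 10.98, 9.53 and 10.60 in wildtype tumours. Transformed MEFs had 6.60, 6.22 and 6.09 when null and 6.62, 6.81 and 6.32 when wildtype, and primary MEFs had 8.47, 7.93 and 8.64 when null and 8.79, 8.34 and 8.16 when wildtype. The 3 stages therefore did not overlap, with tumours highest and transformed MEFs lowest. Tumours were higher than transformed MEFs by 3.62 ± 0.42 in null samples, a 12.3-fold difference (adjusted p = 8.36e-05), and by 3.79 ± 0.42 in wildtype samples, a 13.8-fold difference (adjusted p = 6.38e-05, limma). The second, dimmer Cdh5 probe was at background in all 6 transformed samples, and there tumours were at least 4.34-fold higher in null and at least 6.11-fold higher in wildtype samples, a bound taken against the upper edge of the background.

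Pecam1 encodes CD31, a homophilic adhesion protein of endothelial junctions that platelets and many leukocytes carry too. It measured 8.65, 7.77 and 8.26 in null tumours and 8.05, 8.22 and 8.92 in wildtype tumours, and between 5.98 and 6.19 in all 6 transformed MEF samples, which is background. Tumours were therefore at least 3.64-fold higher in null samples (adjusted p = 5.83e-05) and at least 4.07-fold higher in wildtype samples (adjusted p = 5.13e-05). In primary MEFs Pecam1 lay between these levels, at 7.29, 6.94 and 7.71 in null and 7.49, 7.47 and 7.25 in wildtype samples. At its second probe the null transformed samples were at background and null tumours at least 2.51-fold higher, and in wildtype samples, where 1 of the 3 transformed samples was above background, the difference was 1.53 ± 0.26.

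The other junction proteins were Esam, an immunoglobulin-type adhesion protein of endothelial tight junctions, and Cldn5, the claudin that seals them. Esam exceeded its level in transformed MEFs by 2.92 ± 0.31 in null tumours (adjusted p = 5.16e-05) and by 2.43 ± 0.31 in wildtype tumours (adjusted p = 0.000177). Cldn5 was at background in null transformed MEFs, between 6.05 and 6.15, and null tumours were at least 5.91-fold higher (adjusted p = 0.00101). In wildtype samples its difference was 3.20 ± 0.49 (adjusted p = 0.000539). Neither gene overlapped between tumours and transformed MEFs of the same genotype, which was also so for 60.6% of all genes in null and 49.8% in wildtype samples.

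Emcn encodes endomucin, a surface sialomucin of capillaries and veins. It stood at 9.43, 7.73 and 8.60 in null tumours and 8.80, 8.46 and 9.38 in wildtype tumours, against 5.94 to 6.00 in the 6 transformed MEF samples. Tumours were at least 4.67-fold higher in null samples (adjusted p = 0.000206) and at least 5.70-fold higher in wildtype samples (adjusted p = 0.000109). Eng encodes endoglin, a co-receptor for ligands of the TGF-beta and BMP family that some mesenchymal cells express as well, and it stayed above background in transformed MEFs, at 6.87 to 7.38 in null and 6.51 to 6.91 in wildtype samples. It was higher in tumours by 1.24 ± 0.27 in null samples (adjusted p = 0.00387) and by 1.57 ± 0.27 in wildtype samples (adjusted p = 0.00118).

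Vwf encodes von Willebrand factor, the clotting protein that endothelial cells store and secrete and that platelets also hold. It was 8.16, 7.99 and 7.72 in null tumours and 8.19, 7.74 and 8.78 in wildtype tumours. Every culture sample was at background, from 5.94 to 6.12 in transformed MEFs and from 6.05 to 6.28 in primary MEFs. Against transformed MEFs, tumours were at least 3.02-fold higher in null samples (adjusted p = 7.56e-05) and at least 3.64-fold higher in wildtype samples (adjusted p = 3.79e-05). The probe under the older Vwf name was detected on no array and averaged 5.94 to 6.04 in the 6 groups.

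The angiopoietin receptor Tek (TIE2) had another course. It measured 8.55, 8.48 and 8.30 in null and 8.40, 8.94 and 8.55 in wildtype primary MEFs, the highest levels of the series for this probe. Transformed MEFs had 6.54, 6.70 and 6.98 when null and 7.79, 7.77 and 7.44 when wildtype, and tumours had 6.82, 6.56 and 6.32 when null and 6.57, 6.60 and 7.39 when wildtype. Wildtype tumours were thus below wildtype transformed MEFs, by −0.81 ± 0.23 (adjusted p = 0.0171), while null tumours and null transformed MEFs overlapped, with a difference of −0.18 ± 0.23 (adjusted p = 0.56). The wildtype call was lost when the deposited values were used without further normalization (−0.35, adjusted p = 0.236) or centred on each array's median, when only the 2 groups compared were fitted (adjusted p = 0.0536), with tumour chip 5 alone (adjusted p = 0.231), and when recipient 1 or transformed sample 1 or 2 was left out (adjusted p from 0.0593 to 0.0659). Whether the stage difference of Tek depends on genotype was tested directly and was not called (0.64 ± 0.33, adjusted p = 0.839).

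Tie1, the related receptor that pairs with Tek, had little signal anywhere and was detected on 7 of the 30 arrays. It was 6.88, 6.25 and 6.44 in null tumours and 6.58, 6.40 and 7.14 in wildtype tumours, against 6.15 to 6.17 in null and 5.98 to 6.09 in wildtype transformed MEFs. Transformed MEFs were at background, so tumours were at least 1.12-fold higher in null samples, which was not called (adjusted p = 0.162), and at least 1.26-fold higher in wildtype samples (adjusted p = 0.0222). Tie1 likely passed the detection filter through tumours, so the wildtype p-value is no separate support. The wildtype call was lost without recipient 3 (adjusted p = 0.0625), without any 1 of the 3 transformed samples, with only the 2 groups compared (adjusted p = 0.0546) and with tumour chip 5 alone (adjusted p = 0.15). Kdr, the main VEGF receptor of endothelium (VEGFR2), averaged between 6.15 and 6.44 at its brighter probe and had no detected array at either, so these arrays carry no measurement of it.

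Sequence upstream of Emcn, Cldn5 and Tek is shown so that members with a common course can be read beside one without it. Emcn and Cldn5 both had their highest group means in tumours and background levels in null transformed MEFs, and Tek did not. The lines give the 250 bases before each start site on GRCm38.p6, 5′ to 3′ on the + strand, from RefSeq: chr3:137340828-137341077 for Emcn, chr16:18776597-18776846 for Cldn5 and chr4:94739039-94739288 for Tek. Capitals mark AGGAA or CGGAA on either strand, the core that transcription factors of the ETS family bind.
Emcn: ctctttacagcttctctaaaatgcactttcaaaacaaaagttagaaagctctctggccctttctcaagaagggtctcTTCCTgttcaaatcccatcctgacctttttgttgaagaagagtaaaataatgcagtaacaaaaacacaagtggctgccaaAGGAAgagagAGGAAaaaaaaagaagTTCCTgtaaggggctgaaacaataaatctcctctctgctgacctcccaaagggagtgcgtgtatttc
Cldn5: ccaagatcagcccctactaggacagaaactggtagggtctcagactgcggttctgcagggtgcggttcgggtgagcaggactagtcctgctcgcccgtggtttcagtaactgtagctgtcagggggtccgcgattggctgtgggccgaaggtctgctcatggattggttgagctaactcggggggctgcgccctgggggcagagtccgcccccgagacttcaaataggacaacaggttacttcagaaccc
Tek: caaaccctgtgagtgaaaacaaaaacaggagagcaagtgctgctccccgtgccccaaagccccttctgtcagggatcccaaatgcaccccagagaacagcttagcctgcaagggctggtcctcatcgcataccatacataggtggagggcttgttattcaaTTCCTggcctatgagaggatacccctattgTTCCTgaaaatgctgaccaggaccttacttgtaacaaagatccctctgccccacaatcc
The Emcn stretch holds 4 such cores and has a GC content of 40.8%, the Tek stretch holds 2 at 51.2%, and the Cldn5 stretch holds none at 59.6%. Of the other members with a sequence in the RefSeq table, Tie1 has 3 cores, Eng 2 and Kdr 1. The core is common, since 71.4% of the 32841 promoter stretches of the same length hold at least 1. Whether the number of cores bears on the course of a member was not tested, and a match is a description of letters, not a measured binding site.

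Between tumours and primary MEFs fewer members were called. In each genotype 3 were higher (Cdh5, Pecam1 and Vwf), 1 was lower (Tek) and 5 were not called. Of these, Vwf likely passed the detection filter only through tumours. Over all genes 27.8% were called higher and 28% lower in null tumours than in null primary MEFs, and 25.6% higher and 26.3% lower in wildtype tumours than in wildtype primary MEFs, so 3 of 9 higher is close to the share over all genes. The median member difference was 0.50 in null and 0.77 in wildtype samples.

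Vwf was at least 3.17-fold higher in null tumours (adjusted p = 5.37e-05) and at least 3.85-fold higher in wildtype tumours (adjusted p = 1.17e-05) than in primary MEFs, where it was at background. Because Vwf likely passed the detection filter only through tumours, these p-values are no separate support. Cdh5 was higher by 1.58 ± 0.43 in null tumours (adjusted p = 0.00874) and by 1.94 ± 0.43 in wildtype tumours (adjusted p = 0.00298). Pecam1 was higher by 0.91 ± 0.28 in null tumours (adjusted p = 0.0155) and by 0.99 ± 0.28 in wildtype tumours (adjusted p = 0.0113). The null Pecam1 call was lost without primary sample 2 (adjusted p = 0.0695) or without recipient 4 (adjusted p = 0.0688). It was also lost with tumour chip 5 alone (0.69 ± 0.4, adjusted p = 0.176), and the wildtype call with tumour chip 4 alone (adjusted p = 0.164). Tek was lower by −1.88 ± 0.23 in null tumours (adjusted p = 4.66e-05) and by −1.78 ± 0.23 in wildtype tumours (adjusted p = 8.39e-05).

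Of the 5 members that were not called against primary MEFs, Cldn5 differed by 0.37 ± 0.53 in null and 1.3 ± 0.53 in wildtype samples (adjusted p = 0.578 and 0.0578). Esam differed by 0.67 ± 0.30 in null and 0.65 ± 0.30 in wildtype samples (adjusted p = 0.0778 and 0.0887). Emcn and Eng differed by 0.50 ± 0.38 and 0.43 ± 0.26 in null samples and by 0.77 ± 0.38 and 0.16 ± 0.26 in wildtype samples. The tumour and primary samples of Eng and Cldn5 overlapped in both genotypes, and those of Emcn and Esam overlapped in the null genotype. Of all genes, 67.6% in null and 59.4% in wildtype samples did not overlap between these stages. The Cldn5 difference in wildtype samples was called without recipient 2 (1.87, adjusted p = 0.00641), that of Tie1 without recipient 2 (adjusted p = 0.0298), and that of Esam without recipient 4, a null recipient that enters through the shared spread (adjusted p = 0.0339). In null samples that of Emcn was called without recipient 5 and that of Esam without recipient 6 (adjusted p = 0.0391 and 0.0149). Centred on each array's median, the values gave calls of Esam in null and wildtype samples (adjusted p = 0.0235 and 0.0285) and Cldn5 in wildtype samples (adjusted p = 0.0333). Used as deposited, they gave calls of Esam and Tie1 in both genotypes, Emcn and Cldn5 in wildtype and Eng in null samples. Some other fits and single chips also called Esam, Cldn5, Emcn or Tie1.

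**Figure D2:**
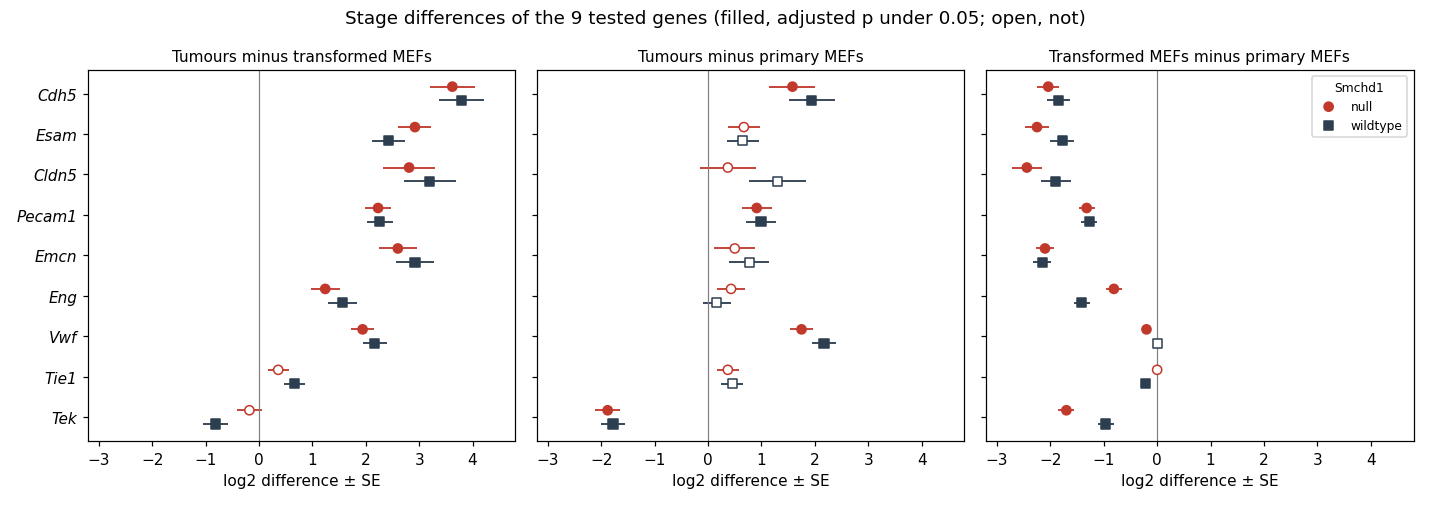
Log2 difference with its standard error (bars) for each tested member, from limma, in the comparisons between stages, for null and wildtype samples, filled where the adjusted p was under 0.05. Differences against a group at background, such as those of Emcn, Pecam1, Vwf and Tie1 against transformed MEFs, are fitted values and not exact sizes. Cdh5 lies between tumours and transformed MEFs at 3.62 in null and 3.79 in wildtype samples, and Tek alone lies below 0 between tumours and primary MEFs, at −1.88 in null and −1.78 in wildtype samples.

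Transformed MEFs were lower than primary MEFs in 8 of 9 members in each genotype. The member that was not called was Tie1 in null cells and Vwf in wildtype cells. Over all genes 25.8% were called lower and 28.7% higher in null cells, and 25.6% lower and 26.4% higher in wildtype cells. The median member difference was −1.70 in null and −1.41 in wildtype cells.

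Emcn was at background in all transformed MEFs, at least 3.30-fold lower than in null primary MEFs and at least 3.35-fold lower than in wildtype primary MEFs. Pecam1 was at least 1.93-fold lower in null and 2.05-fold lower in wildtype cells, and Cldn5 at least 4.58-fold lower in null cells. Cdh5 differed by −2.04 ± 0.21 in null and −1.85 ± 0.21 in wildtype cells, and Esam by −2.25 ± 0.23 in null and −1.78 ± 0.23 in wildtype cells. Tek differed by −1.70 ± 0.15 in null cells (adjusted p = 8.85e-07) and −0.96 ± 0.15 in wildtype cells (adjusted p = 0.000168). The calls of Vwf in null cells (−0.20 ± 0.08, adjusted p = 0.0484) and Tie1 in wildtype cells (−0.22 ± 0.08, adjusted p = 0.0302) lie within the background. The Vwf call was lost in 17 of 21 other settings, and the Tie1 call without primary sample 1 or 2 or transformed sample 2 or 3 (adjusted p from 0.0633 to 0.106). The Tie1 call was also lost with 1 fit of all 6 groups (adjusted p = 0.364) and with only the 2 groups compared (adjusted p = 0.0591).

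Genotype made a called difference in 1 member at 1 stage. In transformed MEFs Tek was lower in null than in wildtype cells by −0.93 ± 0.14 (adjusted p = 0.012, limma on the 6 transformed samples), and the groups did not overlap, with 6.54 to 6.98 in null and 7.44 to 7.79 in wildtype cells. At that stage 3.55% of all genes were called lower and 2.98% higher in null cells, and 28.4% did not overlap between the genotypes. The Tek call held in all 13 other settings tried, with adjusted p from 0.00938 to 0.048. In primary MEFs the Tek difference was −0.19 ± 0.15 and was not called. The difference between these 2 genotype differences was −0.74 ± 0.22, with an adjusted p of 0.104, at which it was not called, while 2.36% of all genes were called in that test. Eng went the other way in transformed MEFs, at 7.11 ± 0.26 in null and 6.69 ± 0.20 in wildtype cells, a difference of 0.42 ± 0.15 that was not called (adjusted p = 0.143) and in which the groups overlapped.

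No member was called between null and wildtype tumours, nor between null and wildtype primary MEFs. In tumours limma called 0% of all genes, with 313 of the 13870 at an unadjusted p under 0.05, and in primary MEFs it called 0.0505%, which is 7 genes. The largest member difference in tumours was that of Cldn5, at −0.74 ± 0.63, with 9.48, 8.73 and 8.56 in null and 10.97, 8.52 and 9.50 in wildtype tumours. Limma called 0% of genes for a stage difference that depends on genotype between tumours and transformed MEFs, with 890 genes at an unadjusted p under 0.05. It likewise called 0% between tumours and primary MEFs, with 484 such genes. An adjusted p over the threshold does not show that the genotypes have the same level, and the 6 recipients give standard errors of up to 0.63 for these genes.

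Within tumours the recipients of 1 genotype differed from each other. Relative to its genotype's mean, recipient 4 of the null tumours stood at 0.50 over the 9 members, and recipients 5 and 6 at −0.22 and −0.27. Of the wildtype tumours, recipients 3 and 1 stood at 0.38 and 0.10 and recipient 2 at −0.48. Ranked over all 6 recipients, 5 members were highest in recipient 3, 2 in recipient 1 and 2 in recipient 4. The 2 highest in recipient 1 were Cdh5 and Cldn5, while for the junction proteins Esam and Pecam1 that recipient had ranks 3 and 5.

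The spread was widest for Cldn5, whose recipients covered 2.45 log2 units, against 1.95 for Cdh5, 1.70 for Emcn and 0.89 for Tie1. For Cldn5 the SD between recipients of a genotype was 0.94, while the SD between the 3 arrays of a recipient was 0.41, and for Emcn these were 0.68 and 0.34. For Pecam1, Eng, Esam, Vwf, Tek and Tie1 the 2 SDs were within 0.1 of each other. The SD between recipients is of means of 3 arrays, and the other is of single arrays on 3 chips. The 2 are thus unlike measures, and near-equal values do not show that arrays differed as much as recipients. The array of wildtype recipient 3 on chip 5 was the highest of the 9 wildtype tumour arrays for 7 of the 9 members, and the lowest for Esam (9.14). Without it, a setting chosen after seeing the data, no member's call changed, and Tie1 then exceeded wildtype transformed MEFs by 0.57 ± 0.17 (adjusted p = 0.0193). With the tumour arrays of any 1 of the 3 chips alone, Cdh5 exceeded wildtype transformed MEFs by 3.18 to 4.34 and null transformed MEFs by 3.54 to 3.78, and was called each time.

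**Figure D3:**
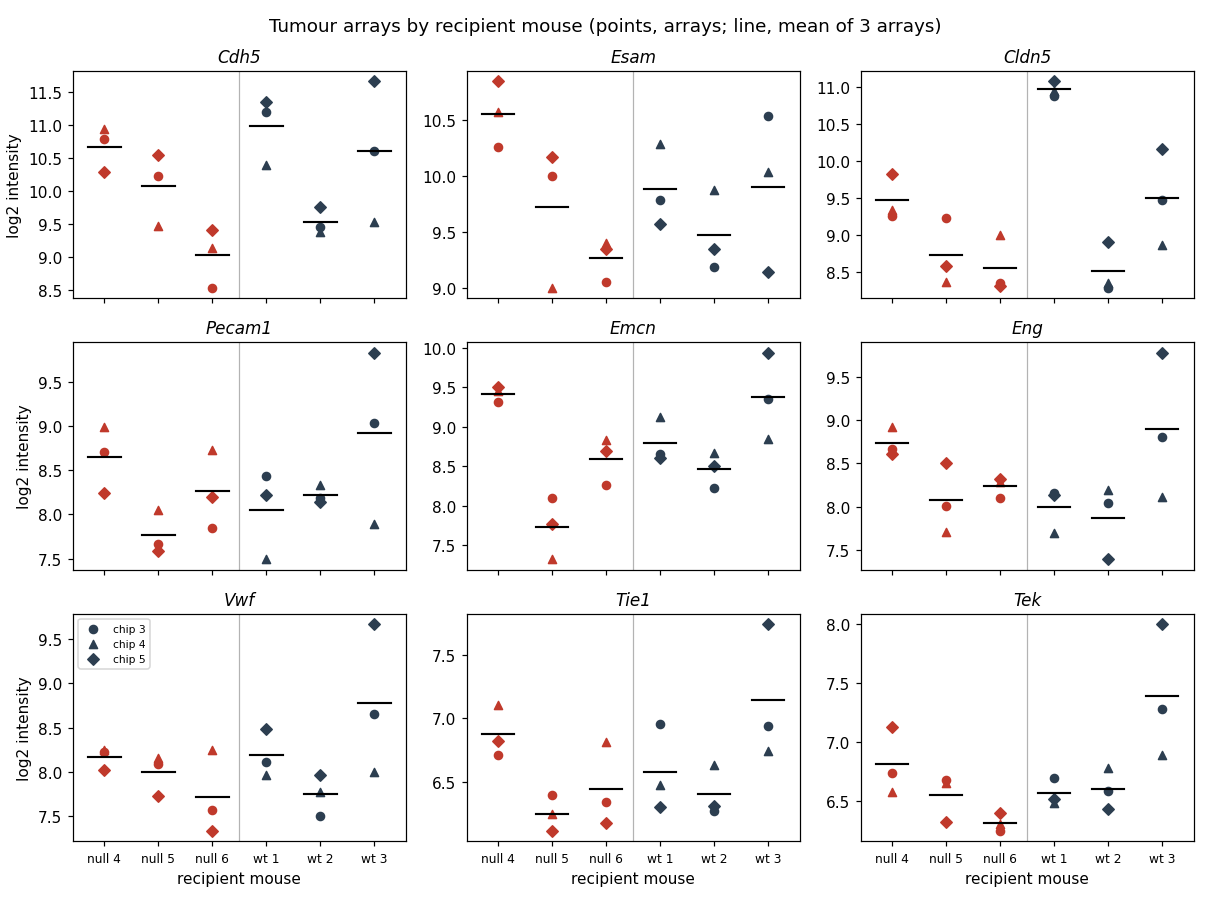
Log2 intensity of the members on each tumour array, by recipient (horizontal axis), with null recipients 4, 5 and 6 left of wildtype recipients 1, 2 and 3. Points are single arrays, with a shape for each chip, and horizontal lines are recipient means. Cldn5 reaches 10.97 in recipient 1, and the highest Tie1 array, at 7.74, belongs to recipient 3.

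Across the 18 samples the members other than Tek moved together. Their 28 pairs had Pearson correlations of 0.65 to 0.97, with a median of 0.86, while the 8 pairs with Tek had −0.55 to 0.07. These points share the 3 stages, so the values follow the group means above. Over the 6 recipients, with each genotype's mean subtracted, the 36 pairs ranged from −0.02 (Pecam1 and Cldn5) to 0.98 (Tie1 and Eng), with a median of 0.62. Among recipients Tek was close to Eng, at 0.93. The genes outside the list that were most like the mean of the members over the 18 samples were Robo4 (0.981), Gpihbp1 (0.98), Cemip2 (0.975), Notch4 (0.973), P2ry13 (0.966), X99384 (0.964), Sox5 (0.963) and Mical1 (0.96). Over the 6 recipients the most alike were A730086L23RIK (0.999), Ankrd61 (0.997), LOC436177 (0.994), Exoc3 (0.994), Lrrn4cl (0.993) and D430007J11RIK (0.991), a description over few points.

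Other genes of the endothelial program were counted from lists of ligands, receptors, transcription factors and surface proteins. Among all genes tested, 22.3% were called higher and 22.5% lower in null tumours than in null transformed MEFs. In the wildtype comparison 19.2% of all genes were called higher and 19.6% lower. Of 10 tested VEGF, angiopoietin and related ligands, 4 were higher and 2 lower in null tumours than in null transformed MEFs, and 2 were higher and 1 lower in the wildtype comparison. The 2 of 10 higher in the wildtype comparison are close to the share over all genes. Pgf, a ligand of the VEGF receptor FLT1, was higher by 2.73 ± 0.35 in null tumours and at least 4.51-fold higher in wildtype tumours. Pdgfb, with which endothelium recruits pericytes, was at least 5.37-fold higher in null and at least 4.42-fold higher in wildtype tumours, as transformed MEFs were at background. Vegfb was lower by −1.59 ± 0.29 in null and −2.12 ± 0.29 in wildtype tumours. Angpt2, the ligand that antagonises Tek in vessels, differed by −0.22 ± 0.25 in null and −0.64 ± 0.25 in wildtype tumours and was not called.

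Of 11 tested receptors of the VEGF, Notch, apelin and related pathways, 7 were higher in null and 5 in wildtype tumours than in transformed MEFs, and none was lower. Notch4, an endothelial Notch receptor, was higher by 2.87 ± 0.41 in null and 3.24 ± 0.41 in wildtype tumours. Ptprb, the phosphatase that acts on Tek and VE-cadherin, was higher by 1.42 ± 0.23 in null tumours and at least 2.40-fold higher in wildtype tumours. Flt1 was higher by 1.66 ± 0.37 in null and 1.48 ± 0.37 in wildtype tumours. Aplnr, the apelin receptor, was called only in the wildtype comparison (at least 1.78-fold), and a dependence on genotype was not called (adjusted p = 0.979). Of 16 tested transcription factors of endothelium, 4 were higher and 1 lower in null tumours, and 6 were higher and 1 lower in wildtype tumours. Among all genes 22.3% were called higher in null and 19.2% in wildtype tumours, so 4 of 16 is close to the null share. Lmo2, which is shared with blood cells, was higher by 3.03 ± 0.32 in null tumours and at least 8.86-fold higher in wildtype tumours. Sox18 was at least 1.5-fold higher in null and at least 2.03-fold higher in wildtype tumours, and Hhex was higher by 1.21 ± 0.23 in null and 1.57 ± 0.23 in wildtype tumours. Klf2, a gene that responds to flow, was lower in wildtype tumours by −1.57 ± 0.24 and differed by −0.51 ± 0.24 in null tumours, which was not called.

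Of 23 other tested endothelial surface and secreted proteins, 12 were higher in null and 11 in wildtype tumours than in transformed MEFs, with none lower. Cd93 was higher by 3.02 ± 0.19 in null and 3.65 ± 0.19 in wildtype tumours. Robo4 and Gpihbp1 were at background in transformed MEFs, with Robo4 at least 4.85-fold higher in null and at least 5.07-fold higher in wildtype tumours, and Gpihbp1 at least 4.18-fold and at least 4.95-fold higher. Mmrn2 was higher by 1.93 ± 0.32 in null tumours and at least 4.00-fold higher in wildtype tumours. Robo4, Gpihbp1 and Mmrn2 were lower in transformed than in primary MEFs in both genotypes, as most members were. On the whole list, however, 8 genes were lower and 7 higher in null transformed MEFs, and 8 lower and 6 higher in wildtype transformed MEFs.

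Markers of other cells moved with the members. Of 14 tested macrophage and leukocyte markers, 13 were higher in tumours than in transformed MEFs and 13 were lower in transformed than in primary MEFs, in both genotypes. The mean level of that list lay between 10.20 and 10.58 in primary MEFs, between 6.28 and 6.38 in transformed MEFs and between 9.97 and 11.20 in tumours, and 2 to 4 of its 14 genes were above background in a transformed MEF sample. Their defining markers Adgre1 and Csf1r were at background in transformed MEFs, at 5.98 ± 0.11 and 6.07 ± 0.03 in null and 5.97 ± 0.03 and 6.15 ± 0.08 in wildtype cells. For comparison, the mean of the 9 members lay between 7.52 and 7.99 in primary MEFs, 6.35 and 6.56 in transformed MEFs, and 8.05 and 8.95 in tumours. Macrophages can carry Pecam1, and the part of these cells in the members' differences was not tested.

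All 4 tested red blood cell genes were higher in tumours than in transformed MEFs and than in primary MEFs, in both genotypes. The mean of that list was 8.17 to 8.89 in primary MEFs, 5.97 to 6.39 in transformed MEFs and 10.63 to 11.70 in tumours. Of 4 tested platelet genes 1 was called higher in tumours than in transformed MEFs in each genotype, against 22.3% (null) and 19.2% (wildtype) of all genes. It was Pf4, at 10.91 ± 0.63 in null and 10.94 ± 1.70 in wildtype tumours, against 5.89 ± 0.03 in null and 5.91 ± 0.05 in wildtype transformed MEFs. Pf4 was also above background in primary MEFs, at 7.82 ± 0.22 in null and 7.50 ± 0.35 in wildtype samples. Like the macrophage and leukocyte list, it was thus lowest in transformed MEFs, and which cells gave its signal was not tested. Against primary MEFs, 1 of the 4 platelet genes was called higher in null tumours and 3 in wildtype tumours. Among all genes 27.8% were called higher in that null comparison and 25.6% in the wildtype one. Platelets hold Vwf and Pecam1, and the part of platelets in the differences of those members was not tested.

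Of 9 tested markers of mural cells, the pericytes and smooth muscle cells around vessels, 2 were higher and 2 lower in null tumours than in null transformed MEFs, and 1 was higher and 1 lower in the wildtype comparison. Among all genes 22.3% were called higher and 22.5% lower in the null comparison, and 19.2% and 19.6% in the wildtype comparison. Of 2 tested lymphatic markers 1 was higher in null tumours and none was called in wildtype tumours. Of 10 tested fibroblast markers 1 was higher in null tumours and none was called in wildtype tumours, and the mean of that list lay between 11.34 and 12.33 in all 18 samples. Its genes went both ways otherwise: 4 were higher and 5 lower in null transformed than in null primary MEFs, and 5 higher and 5 lower in wildtype ones. Against primary MEFs, 3 were higher and 4 lower in null tumours, and 4 higher and 4 lower in wildtype tumours. Of 8 tested keratinocyte and other epithelial markers, 2 were higher in each genotype, with 2 lower in null and 1 lower in wildtype tumours.

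**Figure D4:**
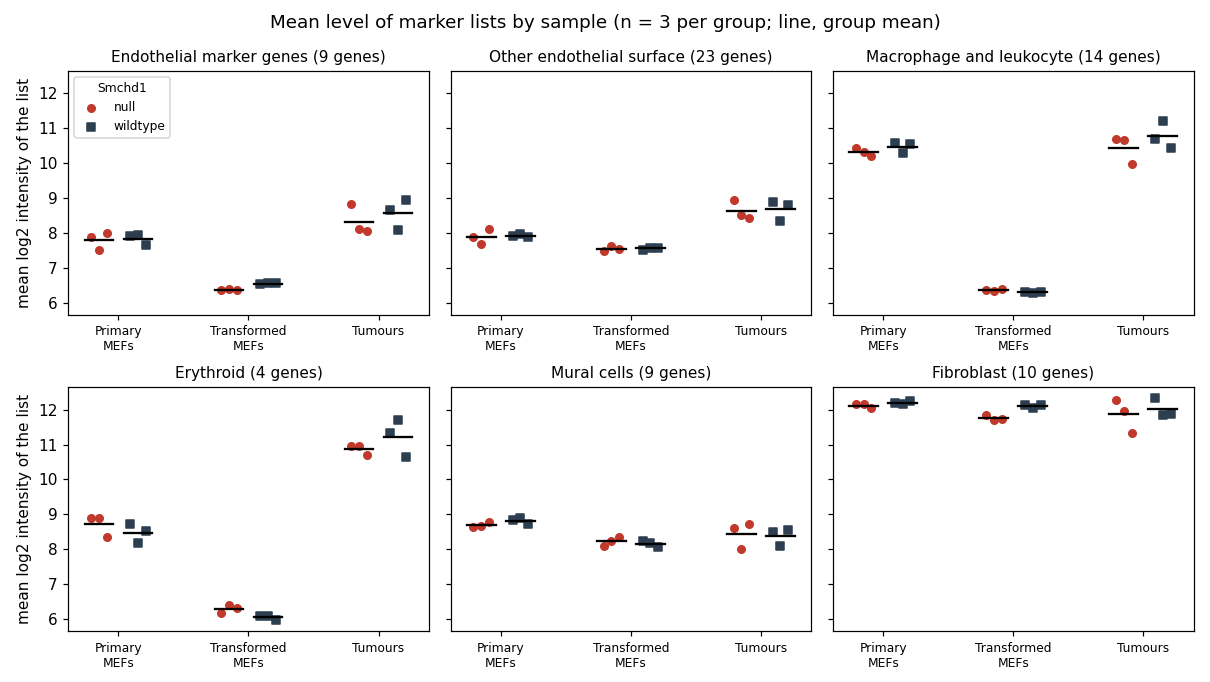
Mean log2 intensity of each gene list (vertical axis) in the 18 samples, by stage and genotype, for the members and for markers of other cells. The members and the macrophage and leukocyte markers are lowest in transformed MEFs, at 6.35 to 6.56 and 6.28 to 6.38, and the mean of the fibroblast markers, whose single genes moved in both directions, is between 11.34 and 12.33.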

How the data were processed

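RNA of 30 samples was hybridised to single-colour Illumina mouse bead arrays. The values used are the log2 intensities deposited by the authors. The submitters' processing notes name BeadStudio and limma 3.12.1 under R 2.15.1. The deposited array medians were 6.07 at the primary stage, 6.06 after transformation and 6.25 for tumours, and the arrays of a stage had nearly the same distribution, so all 30 arrays were quantile normalized together. The deposited scanner table gives a detection p-value per probe and array, per the file headers; its 480 array columns match no sample label and were used only as a set, to keep 20254 of 45281 probes with a detection p-value under 0.01 on at least 3 arrays. A gene is its kept probe with the highest mean. The 3 arrays of a tumour recipient were averaged.

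Differences were fitted with limma 3.58.1 in R 4.3.3 on the 4 groups of a pair of stages, or on the 6 samples of 1 stage for genotype, and p-values were adjusted over all 13870 genes by the Benjamini-Hochberg method. The fit was tested on simulated data. The number of arrays limits the precision. The members and gene lists were chosen with earlier results of these data known. All members are named, and of each other list up to 4 genes, those with the smallest adjusted p between wildtype tumours and wildtype transformed MEFs; Adgre1 and Csf1r were named after their values were seen. Alternatives were other scalings and filters, single chips, other fits and samples left out.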

Additional observations from a re-analysis of the deposited data

Results flagged for a closer look

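One member value stood apart on a single array. In wildtype tumours the highest Tie1 array, from recipient 3, measured 7.74, against 6.95 for the next of the 9 arrays, and this gap was 0.537 of the group's whole range. It was the only one of 18 sets of 9 arrays (9 members in null and in wildtype tumours) in which an end array lay so far from the rest. The limit used is one that about 5% of sets of independent values pass by chance. These arrays are not independent, being 3 from each of 3 recipients, so that rate does not hold here. The same array was the highest of the wildtype tumour arrays for 7 of the 9 members, and the lowest of them for Esam, at 9.14 against 9.19 for the next.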

How the results depend on the processing

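With the deposited values used without joint normalization, 7 members were called between tumours and primary MEFs in null samples and 8 in wildtype samples, against 4 each, and the median of all genes then shifted by 0.35 in both. Over all genes that scaling called 5959 higher and 2477 lower in null samples (3860 and 3887 after joint normalization) and 5834 higher and 2269 lower in wildtype samples (3548 and 3654). Against transformed MEFs it called 5946 higher and 1250 lower in null samples (3097 and 3125) and 5829 higher and 1037 lower in wildtype samples (2657 and 2721), with a median shift of 0.37 in both. The number of members called otherwise stayed within 1.5 times the reported one under every setting run, from 7 to 9 between tumours and transformed MEFs, 3 to 6 between tumours and primary MEFs, and 7 to 8 between transformed and primary MEFs.

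Of 2250 values of single members under other settings, 40 lost a call and 26 gained one, and no called difference changed sign, while 82 uncalled ones did. Left out in turn, single samples gave 7 to 9 called members between wildtype tumours and wildtype transformed MEFs, 7 in null samples, 3 to 5 between tumours and primary MEFs in null samples and 4 to 6 in wildtype samples, and 1 for genotype in transformed MEFs. The Pecam1 call between wildtype tumours and primary MEFs was lost with chip 4 alone (0.50 ± 0.28, adjusted p = 0.164). With single arrays as samples and chip as a random block, which leaves out that arrays share recipients, a setting chosen after seeing the data, the Cldn5 difference between wildtype tumours and primary MEFs was called (adjusted p = 0.0203). Over all genes, 1 fit of all 6 groups called 44 higher and 103 lower for genotype in transformed MEFs (413 and 493 reported), 18 and 1 in tumours (0 reported), 11 and 4 in primary MEFs (6 and 1), 2465 and 2562 between null transformed and primary MEFs (3975 and 3576), 2164 and 2394 between wildtype ones (3656 and 3556), and 3 and 27 for their interaction (116 and 211). With no detection filter the genotype counts were 267 and 334 in transformed MEFs, and leaving out single samples gave from 101 and 142 to 235 and 317. Chip 5 alone gave 1441 and 1526 between wildtype tumours and transformed MEFs. Same-numbered cultures of the 2 genotypes did not deviate together (correlations of −0.37 to 0.07). With 3 samples per group this cannot show whether the numbers pair them. With the replicate block 8 members were called between transformed and primary MEFs in wildtype cells, and 7 in null cells, where Vwf lost its call (adjusted p = 0.0652). For genotype the block gave 1 member in transformed MEFs and 0 at each other stage, and over all genes 6 higher and 1 lower in tumours, against 0. Background correction of the scanner values was not run, because their columns match no label.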
